A study of Mus musculus with 82 samples.

Results

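The mouse genes Brd2, Pigv, Cubn, Gng2 and Bhlhe40 are the coding genes nearest to the 5 widest Brachyury peaks that no peak of tagged Eomes (EoGFP) overlapped, and the binding around them is described here. At Brd2 the midpoint of the peak also lies in the span of H2-DMa, so H2-DMa is equally near. Every peak whose midpoint lay within 50 kb of the span of one of these 5 genes in build mm10/GRCm38 was taken, which gave 97 of the 132113 peaks in 4 deposited peak lists. They were 33 of 27588 BraGFP peaks, 12 of 30129 EoGFP peaks, 18 of 38193 EoV5 peaks and 34 of 36203 EoVP16 peaks. The genes were chosen by peak width and by the lack of an EoGFP overlap, so both are given as description, while the EoV5 and EoVP16 lists played no part in the choice.

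ChIP-seq accounts for 12 of the 82 mouse samples in the series, and the 4 lists stand for 6 of those libraries. All 4 groups were embryoid bodies made from A2lox.Cre embryonic stem cells labelled dKO, the study's cells without functional Eomes and Brachyury, and carried 1 doxycycline-inducible construct. The groups were dKO+BraGFP (Brachyury with a GFP tag, 2 libraries), dKO+EoGFP (Eomes with a GFP tag, 2 libraries), dKO+EoV5 (Eomes with a V5 tag, 1 library) and dKO+EoVP16 (Eomes joined to the viral VP16 activation domain, 1 library). All were given activin A at 30 ng/ml and doxycycline at 5 µg/ml until day 5, when chromatin was taken. The doxycycline dose is that of the growth protocol, while the treatment protocol in the same labels writes 5 mg/ml. BraGFP and EoGFP were precipitated with an antibody to GFP, EoV5 and EoVP16 with an antibody to V5. Bound sites are therefore those of an induced, tagged protein, and the cells' own state was not checked because peak lists hold no expression values.

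Brachyury (gene symbol T) and Eomes belong to the T-box family and act in the primitive streak, from which mesoderm and definitive endoderm form. Their DNA-binding domains are related, and T-box proteins recognise a short half-site whose core reads GTGTGA. Brd2 encodes a BET protein, a chromatin reader whose bromodomains bind acetylated histone tails. Pigv encodes a mannosyltransferase of the endoplasmic reticulum that builds the GPI anchor of surface proteins. Cubn encodes cubilin, an endocytic receptor of visceral endoderm, kidney tubule and gut. Gng2 encodes a gamma subunit of heterotrimeric G proteins. Bhlhe40 encodes a bHLH repressor that acts in hypoxia responses and the circadian clock.

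Sequences at those start sites of the 5 genes that lay in peaks are printed here because the lists differed from gene to gene at these starts. Each is the RefSeq promoter of build GRCm38.p6, running from 250 bases before to 50 bases after an annotated start, 5′ to 3′ on the minus strand, and capitals mark the core GTGTGA or its reverse complement TCACAC. The 3 starts of Brd2 span chr17:34119851-34120150, chr17:34121698-34121997 and chr17:34122558-34122857, and all 3 lay in peaks of BraGFP, EoV5 and EoVP16 but in no EoGFP peak. The 2 starts of Pigv span chr4:133672598-133672897 and chr4:133673117-133673416 and lay in peaks of all 4 lists. The start of Gng2 spans chr14:19976644-19976943 and lay in an EoVP16 peak alone. The promoter table held no start of Bhlhe40, so whether that start lay in a peak is not given here. Over 21263 coding start sites in the promoter table, 19.6% lay in a BraGFP peak, 37.3% in an EoGFP peak, 30.2% in an EoV5 peak and 49.7% in an EoVP16 peak.
Brd2 start 1: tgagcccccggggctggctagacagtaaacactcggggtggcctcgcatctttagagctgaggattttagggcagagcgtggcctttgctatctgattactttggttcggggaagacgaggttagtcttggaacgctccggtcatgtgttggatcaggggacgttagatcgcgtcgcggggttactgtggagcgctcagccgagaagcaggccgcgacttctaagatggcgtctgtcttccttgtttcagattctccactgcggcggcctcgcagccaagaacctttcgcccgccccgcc
Brd2 start 2: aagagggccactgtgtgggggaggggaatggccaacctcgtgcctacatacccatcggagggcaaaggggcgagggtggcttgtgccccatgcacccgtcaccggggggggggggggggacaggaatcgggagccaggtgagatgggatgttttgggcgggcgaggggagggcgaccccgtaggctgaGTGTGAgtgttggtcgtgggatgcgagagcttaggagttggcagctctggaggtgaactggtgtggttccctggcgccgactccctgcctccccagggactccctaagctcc
Brd2 start 3: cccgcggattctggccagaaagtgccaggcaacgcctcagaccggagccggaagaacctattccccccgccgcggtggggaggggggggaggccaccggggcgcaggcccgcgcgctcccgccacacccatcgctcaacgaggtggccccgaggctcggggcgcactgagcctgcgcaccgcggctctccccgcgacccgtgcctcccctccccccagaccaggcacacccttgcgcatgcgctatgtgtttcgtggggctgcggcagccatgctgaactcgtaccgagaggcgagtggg
Pigv start 1: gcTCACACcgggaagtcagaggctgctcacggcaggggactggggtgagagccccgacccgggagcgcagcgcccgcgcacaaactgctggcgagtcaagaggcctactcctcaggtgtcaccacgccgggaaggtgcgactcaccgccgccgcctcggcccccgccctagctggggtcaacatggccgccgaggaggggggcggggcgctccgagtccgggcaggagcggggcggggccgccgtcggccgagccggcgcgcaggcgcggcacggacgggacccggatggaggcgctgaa
Pigv start 2: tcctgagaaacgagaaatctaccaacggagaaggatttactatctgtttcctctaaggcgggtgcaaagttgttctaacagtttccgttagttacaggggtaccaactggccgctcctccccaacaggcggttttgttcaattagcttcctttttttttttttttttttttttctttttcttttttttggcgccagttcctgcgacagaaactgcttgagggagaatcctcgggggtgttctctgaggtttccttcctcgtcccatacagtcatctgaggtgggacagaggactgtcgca
Gng2 start: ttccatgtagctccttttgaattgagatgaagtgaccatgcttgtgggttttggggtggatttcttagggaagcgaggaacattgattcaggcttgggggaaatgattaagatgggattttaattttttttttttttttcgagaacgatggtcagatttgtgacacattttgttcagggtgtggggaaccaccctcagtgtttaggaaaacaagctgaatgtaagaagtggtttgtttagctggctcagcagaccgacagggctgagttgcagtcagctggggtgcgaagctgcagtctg
The core was found in 1 of the 3 Brd2 promoters, where it begins 62 bases before start 2, and in 1 of the 2 Pigv promoters, where it begins 248 bases before start 1. In Pigv it is part of the longer form TCACACC, the reverse complement of GGTGTGA. The Gng2 and Cubn promoters held neither form. Of 21263 coding promoters of the same 300 bases, 13.2% held the core on either strand and 3.68% the longer form, which contains the core. G and C made up 58.7%, 66.0% and 72.3% of the promoters at Brd2 starts 1 to 3 and 75.3% and 45.7% at Pigv starts 1 and 2. At Gng2 they made up 44.7% and at Cubn 44.3%, against a median of 56.3% over coding promoters.

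The widest of the 5 peaks lay over Brd2, at chr17:34118577-34124101, and was 5525 bp wide, the widest peak of the whole BraGFP list and 9.41 times its median width of 587 bp. The peak beside Pigv, at chr4:133673786-133677501, was 3716 bp wide and the 13th widest of the list. Within Cubn the peak at chr2:13370187-13373617 measured 3431 bp and ranked 19. Beyond the upstream end of Gng2 the peak at chr14:19984354-19987618 measured 3265 bp and ranked 26, and at Bhlhe40 the peak at chr6:108658118-108661155 measured 3038 bp and ranked 39. Just outside these 5 in width were peaks in Trim67 (2896 bp) and Cdk6 (2854 bp) and a peak of 2836 bp lying 53.3 kb from Ulbp1. Widths ran on in small steps on both sides of the Bhlhe40 peak, and the Brd2 peak stood well apart from the rest. The other 28 BraGFP peaks near the 5 genes were 236 to 1776 bp wide, with a median of 582 bp, close to that of the list.

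**Figure D1:**
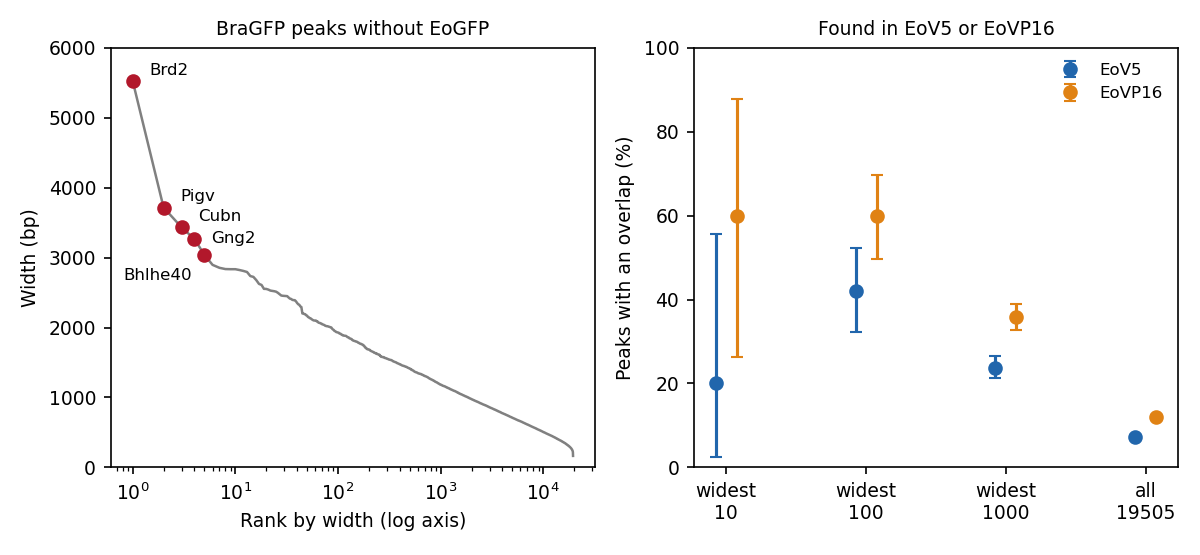
Left, width in bp of every BraGFP peak without EoGFP overlap against its rank (log axis), with the 5 peaks that chose the genes as named points. Right, percent of the widest 10, 100 and 1000 such peaks and of all 19505 that overlapped an EoV5 (blue) or EoVP16 (orange) peak, with exact 95% intervals, where the EoVP16 share is 60.0% in the widest 10 and 100 and 12.0% over all.

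The 5 peaks took different places relative to their genes. At Brd2, 76.7% of the peak lay inside the gene span, and it covered the 3 Brd2 starts and 1 start of H2-DMa, an MHC class II chaperone gene that runs the other way. The H2-DMa span, chr17:34119693-34139101, overlaps that of Brd2 and also holds the midpoint of the peak. The peak can therefore not be assigned to Brd2 alone by position. The Cubn peak lay wholly inside the gene, 118259 bp from the annotated Cubn start. The midpoints of the other peaks lay outside the spans, by 1.65 kb at Pigv, 8.16 kb at Gng2 and 0.993 kb at Bhlhe40. The Pigv peak came within 620 bp of the nearest Pigv start and the Gng2 peak within 7661 bp of the Gng2 start. The Bhlhe40 peak overlapped the 527 bp of the gene span lowest in coordinate and held the start of 0610040F04Rik, a long noncoding RNA gene, at position 108660934 on the minus strand. No start of Bhlhe40 itself was in the promoter table, so whether the peak also held that start is not given here.

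EoGFP peaks lay at very different distances from these 5 peaks. Beside Pigv, an EoGFP peak 4116 bp wide, at chr4:133669554-133673669, ended 116 bp short of the BraGFP peak, so the Pigv peak counted as BraGFP-only by a narrow margin. The nearest EoGFP peak was 7085 bp away at Bhlhe40 and 15231 bp away at Brd2. At Gng2 it was 94793 bp away and at Cubn 98109 bp away. If a gap of at most 500 bp counted as shared, Pigv would leave the 5 and the other 4 would stay.

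The other Eomes lists then separated the 5 peaks. At Brd2 the BraGFP peak was matched by an EoV5 peak of 4534 bp, covering 82.1% of it, and by an EoVP16 peak of 5206 bp, covering 94.2%. EoV5 reached 236 fragments at its summit there (pileup, exact 95% Poisson interval 207 to 268) with a fold enrichment of 33.8 over the caller's background. EoVP16 reached 114 fragments (94.0 to 137) with a fold of 19.2. The EoV5 and EoVP16 summits, at 34122195 and 34122224, were 29 bp apart and lay 412 and 383 bp downstream of Brd2 start 3. Brd2 was the only one of the 5 whose peak overlapped EoV5, which 7.37% of all 19505 BraGFP peaks without EoGFP did. Of the widest 100 of these, 42.0% did. The Brd2 peak thus overlapped no EoGFP peak, but it did overlap peaks of both Eomes proteins precipitated with the V5 antibody.

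EoVP16 peaks also overlapped the peaks at Bhlhe40, Pigv and Cubn, so 4 of the 5 had EoVP16. The share was 12.0% over the 19505 and 60.0% over the widest 100 of them. At Bhlhe40, EoVP16 peaks of 55 fragments (41.4 to 71.6) and 44 fragments (32.0 to 59.1) covered 94.2% of the BraGFP peak, the second with its summit outside it. At Pigv, EoVP16 peaks of 71 fragments (55.5 to 89.6) and 40 fragments (28.6 to 54.5) covered 57.1%, and the taller of them reached over both Pigv starts with its summit outside the BraGFP peak. At Cubn a peak of 67 fragments (51.9 to 85.1) covered 42.4%. These heights bracket the EoVP16 list's median of 54 fragments. The nearest EoV5 peak was 83 bp away at Pigv, 7044 bp at Bhlhe40, 10976 bp at Cubn and 56074 bp at Gng2. Gng2 was thus the only one of the 5 whose wide peak overlapped no Eomes list, its nearest EoVP16 peak lying 523 bp beyond the peak's end.

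**Figure D2:**
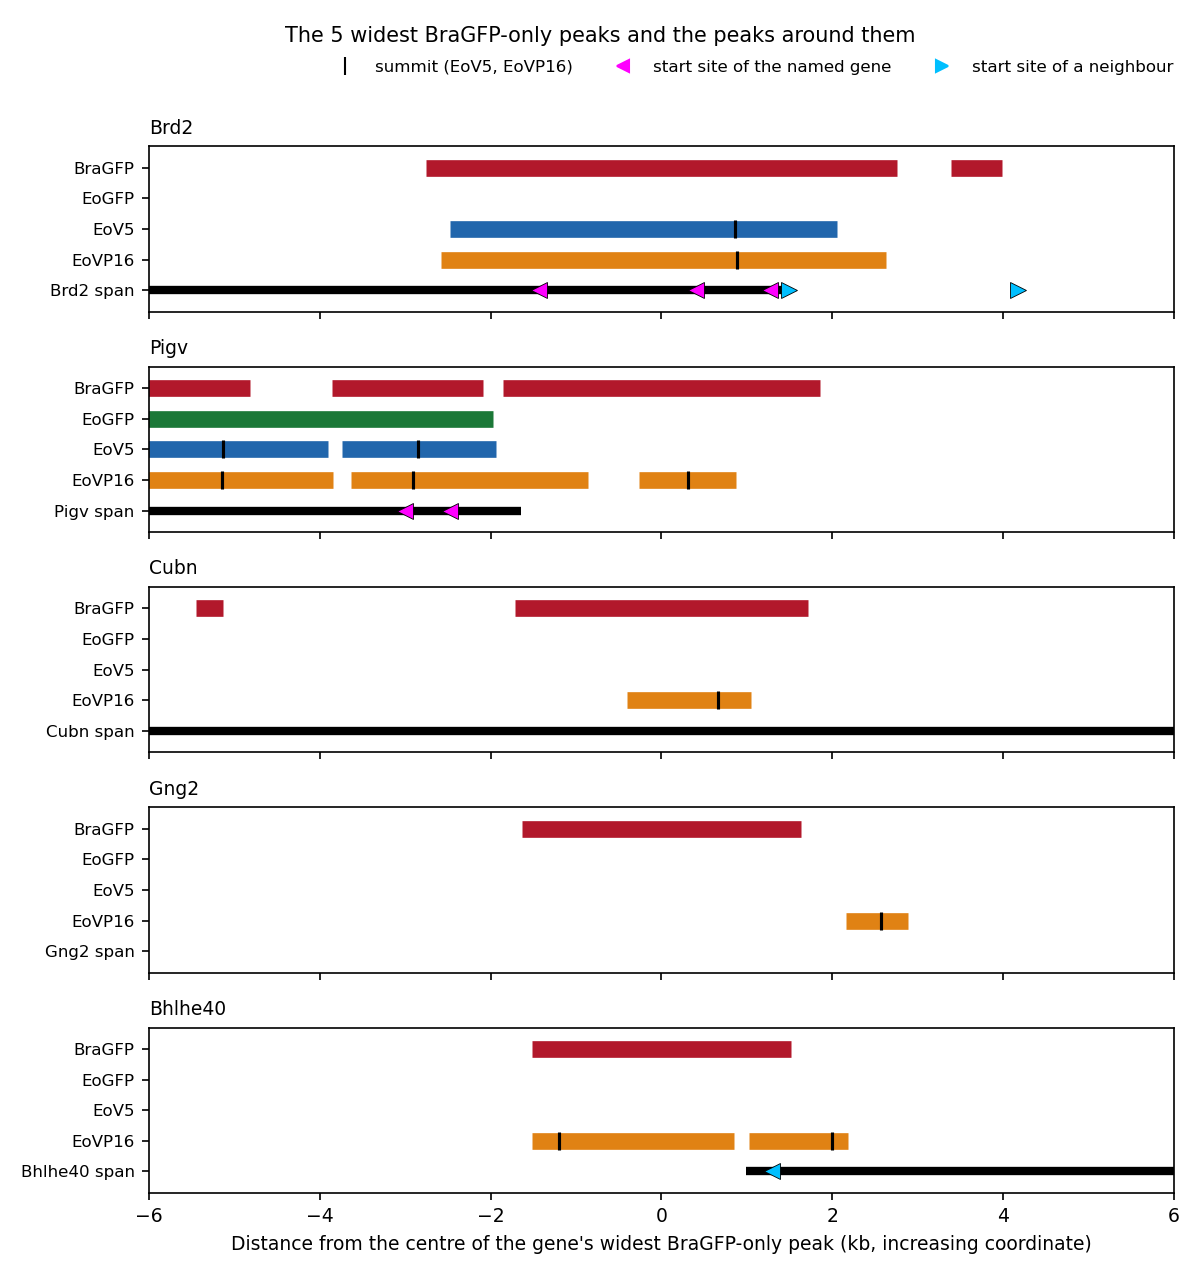
Peaks of BraGFP, EoGFP, EoV5 and EoVP16 (bars, to scale) within 6 kb of the centre of each wide BraGFP peak, with gene spans in black, summits as ticks and start sites as arrowheads in the direction of transcription. Brd2 is matched by EoV5 and EoVP16, Pigv, Cubn and Bhlhe40 by EoVP16, and Gng2 by neither, while EoGFP stops 116 bp short at Pigv. The start of Bhlhe40 itself was not available and is not drawn.

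The lack of EoGFP at Brd2 was part of how the gene was chosen, so EoV5 peaks of the same size are given beside it only as a description. Of the 4934 EoV5 peaks at least as tall (236 fragments), 4729 overlapped an EoGFP peak, or 95.8% (exact 95% interval 95.3 to 96.4). Of the 75 at least as wide (4534 bp), 72 did, or 96.0% (88.8 to 99.2). Of the 24 at least as tall and as wide, 22 did, or 91.7% (73.0 to 99.0), and Brd2 is 1 of the other 2. Near Brd2 itself the other 3 EoV5 peaks, all lower with 193, 221 and 75 fragments, overlapped EoGFP. Over the 5 genes 10 of 18 EoV5 peaks did, and the share of the whole EoV5 list is not given here. The minimum pileup in the file names was 120 fragments for EoGFP, against 40 for BraGFP, 60 for EoV5 and 36 for EoVP16, and an EoGFP signal under 120 fragments would not appear in it, a possibility that was not tested.

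Among BraGFP peaks without EoGFP, the widest 100 and 1000 overlapped the other Eomes lists in larger shares than all 19505. Of the widest 10, which include the 5 described here, 2 overlapped EoV5 (2.52 to 55.6%, an interval that holds the overall 7.37%) and 60.0% (26.2 to 87.8) EoVP16. Of the widest 100, 42.0% (32.2 to 52.3) overlapped EoV5 and 60.0% (49.7 to 69.7) EoVP16. Of the widest 1000, 23.8% (21.2 to 26.6) overlapped EoV5 and 35.8% (32.8 to 38.9) EoVP16, and the intervals of both classes lie above the shares of all 19505. A wider peak offers more bases in which 1 bp can be shared, and the part of length itself was not tested.

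The number of peaks per gene differed between the 5. BraGFP gave 7 peaks within 50 kb of Brd2, 4 of Pigv, 12 of Cubn, 5 of Gng2 and 5 of Bhlhe40, against a median of 2 over 21887 coding genes. EoGFP gave 6, 2, 2, 0 and 2 peaks in the same gene order, EoV5 gave 4, 3, 5, 1 and 5, and EoVP16 gave 6, 5, 9, 7 and 7, against medians of 3 in each of these lists. Each gene had at least 1 BraGFP peak by the way it was chosen. A peak within 50 kb was common to begin with: 76.5% of coding genes had one in BraGFP, 81.1% in EoGFP, 83.0% in EoV5 and 84.2% in EoVP16.

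**Figure D3:**
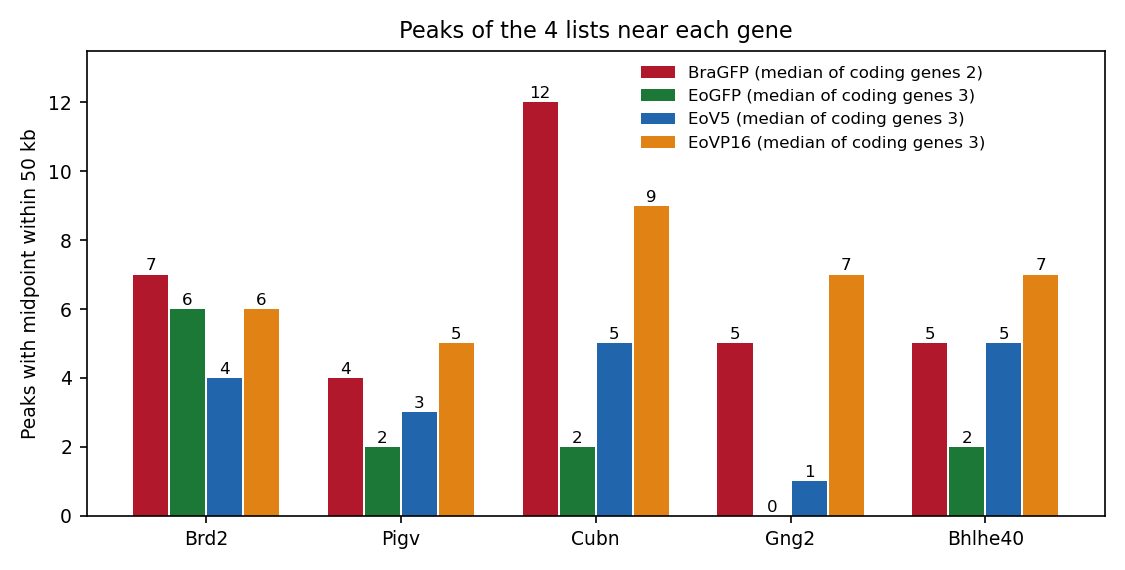
Number of peaks with midpoint within 50 kb of each gene in the BraGFP, EoGFP, EoV5 and EoVP16 lists, from left to right in each group of bars, with the median over coding genes in the legend. Cubn has 12 BraGFP and 9 EoVP16 peaks against 2 EoGFP peaks, and Gng2 has 5 BraGFP and 7 EoVP16 peaks with 0 in EoGFP.

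Longer windows hold more peaks, so each gene was set beside coding genes whose span plus both 50 kb flanks was within 10% of its own. Cubn, at chr2:13276338-13491876, spans 216 kb, and its 12 BraGFP peaks compare with a median of 4 over 369 genes of like length (quartiles 2 and 7). Brd2, at chr17:34112019-34122814, spans 10.8 kb, and its 7 BraGFP peaks compare with a median of 1 over 12373 genes (quartiles 0 and 3). Gng2, at chr14:19872558-19977825, spans 105 kb, and its lack of EoGFP peaks compares with a median of 3 over 1128 genes, of which 7.62% also had 0. Pigv, at chr4:133659359-133673995, and Bhlhe40, at chr6:108660629-108666925, are short genes of 14.6 and 6.30 kb. Their 4 and 5 BraGFP peaks compare with medians of 2 and 1. Over all coding genes, 0.434% had more BraGFP peaks than Cubn, 3.05% more than Brd2, 8.65% more than Gng2 or Bhlhe40 and 14.7% more than Pigv.

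Overlapping peaks of the 4 lists were joined into 57 sites, of which 38 were found in 1 list, 8 in 2, 8 in 3 and 3 in all 4. Joined in the same way, the whole lists gave 71918 sites, of which 53.1% were found in 1 list. BraGFP alone held 21 of the 57 sites, against 23.0% of all sites, and EoVP16 alone held 13, against 13.6%. The genes were chosen by BraGFP peaks without EoGFP, so the BraGFP count is a description. The wide peak that chose Gng2 is among the 21. EoV5 alone held 3, against 14.5%, and EoGFP alone 1, against 2.03%. Of the 3 sites of all 4 lists, 1 ran over the Pigv starts and took in the wide peak beside them, 1 lay just beyond Bhlhe40 at chr6:108667608-108669088, and 1 lay between H2-Oa and Brd2 at chr17:34101507-34102072. A further 6 sites held EoGFP, EoV5 and EoVP16 without BraGFP, 2 at Brd2, 1 at Pigv, 2 at Cubn and 1 at Bhlhe40. For sites of all 4 lists and for this combination, the share over all 71918 sites is not given here.

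**Figure D4:**
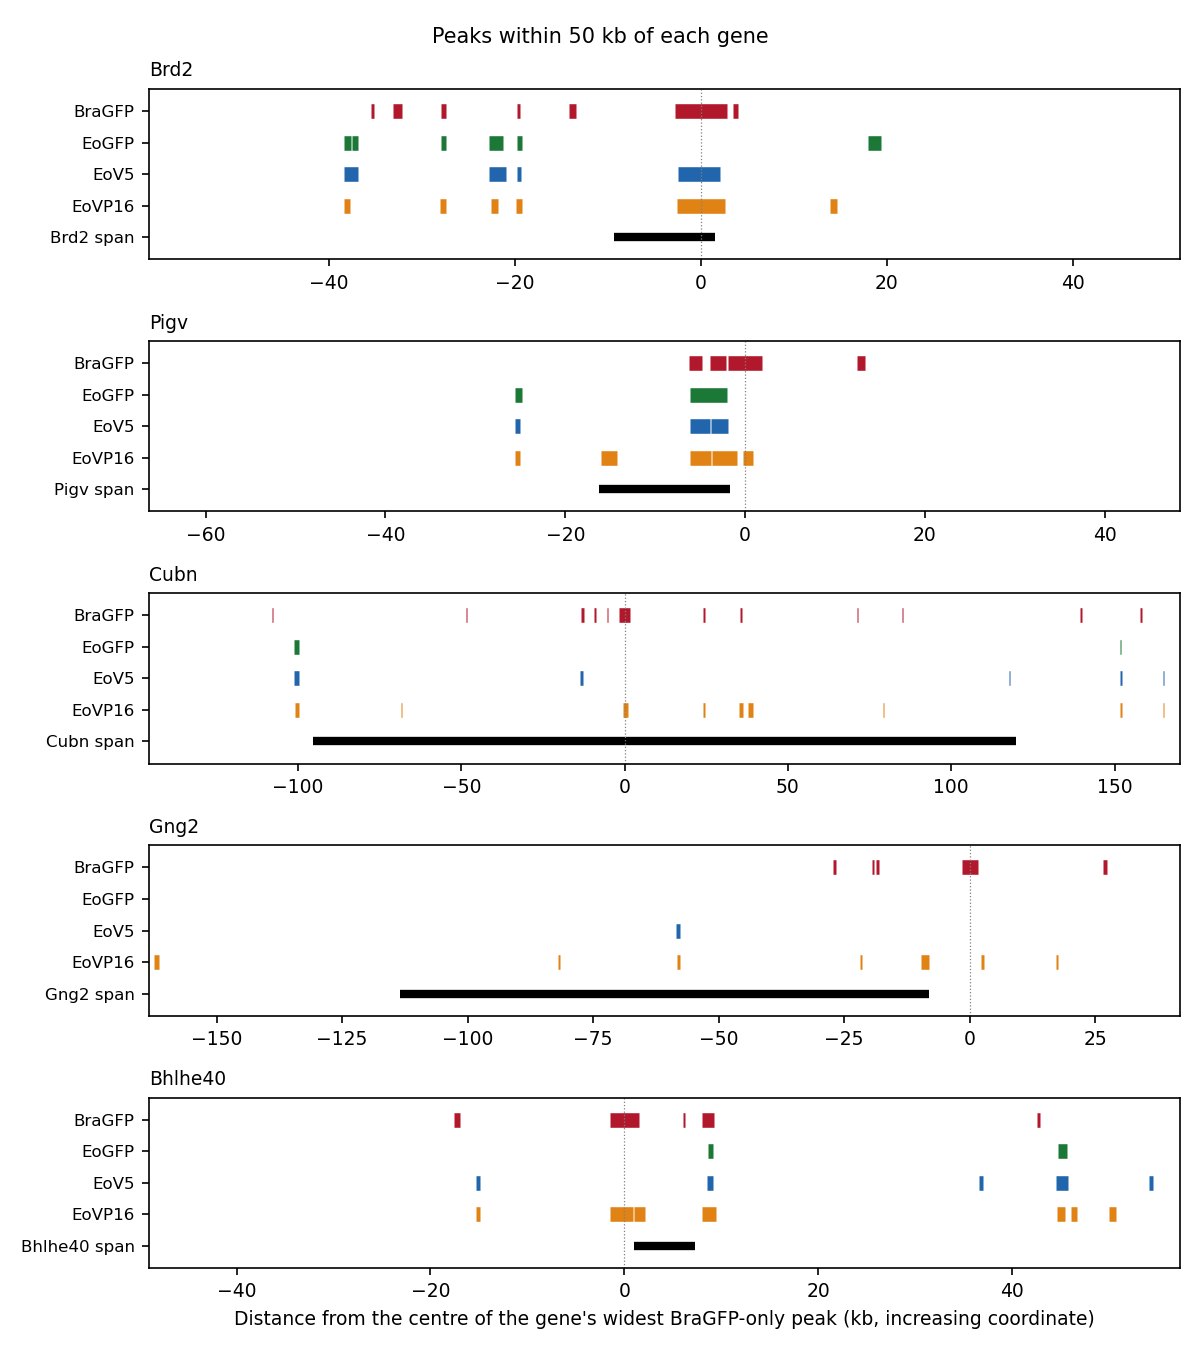
All BraGFP, EoGFP, EoV5 and EoVP16 peaks within 50 kb of each gene, drawn to scale by distance in kb from the centre of the wide BraGFP peak (dotted line), with the gene span in black. The 12 BraGFP peaks at Cubn are spread through and beyond the gene, and at Gng2 the BraGFP and EoVP16 peaks lie apart with no overlap.

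Cubn carried the most BraGFP peaks, and 9 of its 12 lay inside the gene. None of the 12 overlapped an EoGFP peak, against 70.7% of the whole BraGFP list without one. The widest of the 12 was chosen for its lack of EoGFP. Besides the wide peak, EoVP16 overlapped the BraGFP peaks at chr2:13395907-13396562 (60 fragments, 45.8 to 77.2) and chr2:13407182-13407883 (69 fragments, 53.7 to 87.3), and EoV5 the one at chr2:13358623-13359370 (80 fragments, 63.4 to 99.6). Both EoGFP peaks near Cubn lay outside it. The wider of them, at chr2:13270660-13272077, covered the start of the neighbour Rsu1, a Ras suppressor gene, together with EoV5 and EoVP16, and BraGFP had no peak there.

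Gng2 had the fewest shared sites of the 5 genes. Its 12 sites included 11 found in 1 list, 5 of them BraGFP and 6 EoVP16, against 53.1% of all sites in 1 list. None of its 5 BraGFP peaks overlapped an Eomes peak, against 60.0% of the whole BraGFP list in no Eomes list, and the widest of the 5 was chosen for its lack of EoGFP. The only shared site, at chr14:19927557-19928279 inside the gene, held EoV5 with 80 fragments (63.4 to 99.6) and EoVP16 with 46 (33.7 to 61.4). EoVP16 also covered the Gng2 start, with a peak of 1532 bp and 53 fragments (39.7 to 69.3). The 7 EoVP16 peaks near Gng2 had 38 to 53 fragments, all below the list's median of 54, and the minimum pileup in the file name was 36 fragments.

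Bhlhe40 held the tallest EoV5 peak of the 5 neighbourhoods, far from its wide BraGFP peak. At chr6:108704129-108705374, 37.8 kb beyond the gene, EoV5 reached 513 fragments (470 to 559) with a fold of 73.3, and 97.3% of the EoV5 list was lower. EoGFP overlapped this peak and BraGFP did not. EoVP16 had 60 fragments there (45.8 to 77.2), 1.11 times its list median, against 5.18 times for EoV5. Just beyond the gene, at chr6:108667608-108669088, all 4 lists had a peak. The EoV5 height there was 133 fragments (111 to 158) and the EoVP16 height 89 (71.5 to 110).

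Over the 5 genes, 28 of 33 BraGFP peaks overlapped no EoGFP peak, or 84.8% (68.1 to 94.9), against 70.7% of the whole BraGFP list. Without the 5 wide peaks that chose the genes the count was 23 of 28, or 82.1% (63.1 to 93.9). EoV5 overlapped 6 of 33 BraGFP peaks, or 18.2% (6.98 to 35.5), against 29.4% of the list. EoVP16 overlapped 11 of 33, or 33.3% (18.0 to 51.8), against 34.0%, and 7 of 28 without the 5 wide peaks, or 25.0% (10.7 to 44.9). In no Eomes list at all were 21 of 33, against 60.0% of the list. The whole list's share lay inside the interval for each of the 3 kinds of overlap, with and without the wide peaks, and peaks near the same gene are not independent.

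Seen from the Eomes side, 4 of 12 EoGFP peaks near the 5 genes overlapped BraGFP, or 33.3% (9.92 to 65.1), against 27.1% of the EoGFP list. BraGFP overlapped 6 of 18 EoV5 peaks, against 20.9% of that list, and 12 of 34 EoVP16 peaks, against 25.7%. EoV5 overlapped 10 of the 12 EoGFP peaks, against 79.6% of the EoGFP list.

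EoV5 peaks near the 5 genes had a median of 93 fragments (63 to 513), against 99 in the EoV5 list, and EoVP16 peaks had a median of 56 (38 to 114), against 54. The 6 EoV5 peaks that overlapped BraGFP had a median of 138 fragments, against 81.5 for the 12 that did not. The 12 EoVP16 peaks that overlapped BraGFP had a median of 68, against 52 for the other 22. Over the whole lists, the medians were 107 fragments for EoV5 with BraGFP and 97 without it, and 72 for EoVP16 with BraGFP and 50 without it. At 14 places an EoV5 and an EoVP16 peak overlapped, their summits 2 to 146 bp apart with a median of 24 bp. Scaled to its own list's median, EoV5 was the higher at 7 of the 14 and EoVP16 at the other 7.

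**Figure D5:**
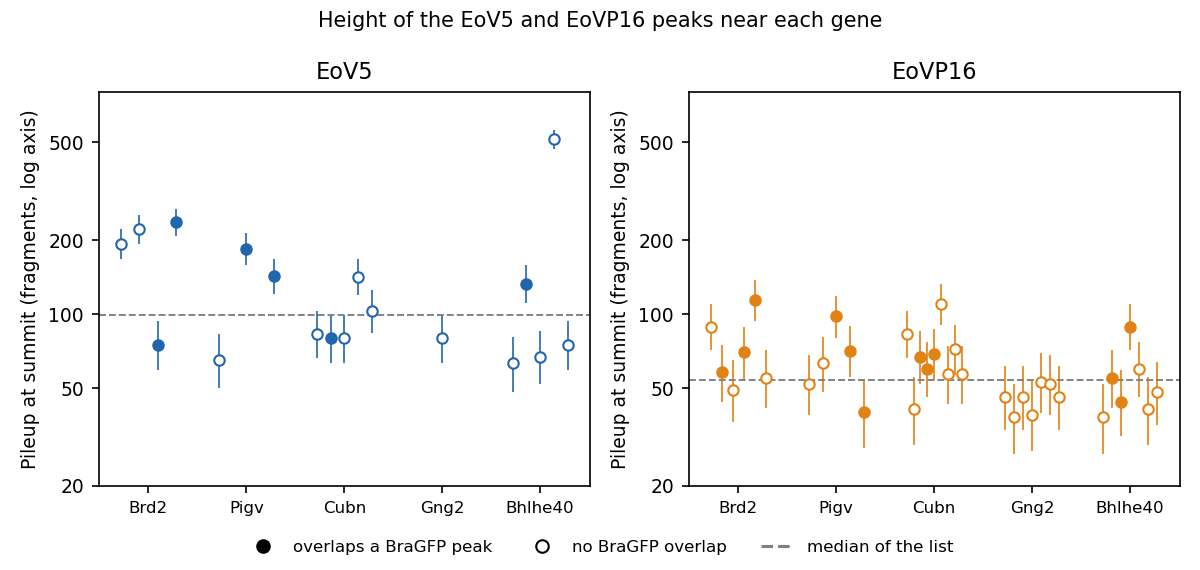
Pileup at the summit, in fragments on a log axis, of every EoV5 (left) and EoVP16 (right) peak near each gene, with exact 95% Poisson intervals, filled where the peak overlapped BraGFP. Dashed lines are the list medians of 99 and 54, with the EoV5 peak of 513 near Bhlhe40 far above its line and the 7 EoVP16 peaks near Gng2 all below theirs.

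The caller's background plus 1 was recovered at each peak from the pileup and the fold enrichment. It was above the list's minimum by more than 0.1% for 0 of 18 EoV5 peaks and 6 of 34 EoVP16 peaks. Over the whole lists, 90.5% of EoV5 and 84.2% of EoVP16 peaks had the minimum. The highest value of background plus 1 was 1.37 times the minimum, at the Gng2 site shared with EoV5. At Brd2, Pigv, Cubn and Bhlhe40 the EoVP16 peaks on the wide BraGFP peaks all had the minimum. The BraGFP and EoGFP lists give no such value.

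Start sites in the 50 kb windows were set against the lists in the same way as those printed above. The promoter table held 15 coding start sites there, in the neighbourhoods of Brd2, Pigv, Cubn and Gng2. Of these 15, 6 lay in a BraGFP peak, 3 in an EoGFP peak, 7 in an EoV5 peak and 9 in an EoVP16 peak. Over all 21263 coding start sites the shares were 19.6%, 37.3%, 30.2% and 49.7% in the same order. All 6 starts with BraGFP belonged to the sites at Brd2 (3 of Brd2, 1 of H2-DMa) and Pigv (2). The 4 starts at Brd2 all lay in the wide peak that chose the gene, where EoV5 and EoVP16 also covered them, so they are not independent. EoVP16 alone covered the starts of Gng2 and of its neighbour Rtraf, and the Cubn start lay in no peak of any list.

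Neighbouring coding genes within 50 kb share some of these peaks. Near Brd2 lie the MHC class II genes H2-Oa, H2-DMa, H2-DMb2 and H2-DMb1 and the collagen gene Col11a2, with 4 to 8 BraGFP peaks each. Of these, H2-DMa overlaps the Brd2 span. Near Pigv lie Arid1a, a subunit gene of the BAF chromatin remodeller, with 9 BraGFP peaks, and Zdhhc18, a palmitoyltransferase gene, with 4. The Pigv wide peak ends short of the Arid1a span, which begins at 133679008. Near Cubn, Rsu1 had 4 BraGFP peaks and the tRNA methyltransferase gene Trdmt1 had 5. Near Gng2, Rtraf had 0.

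Relatives of the 5 genes, listed by family or partnership, also had peaks, as most coding genes did. Over all coding genes, 76.5% had a BraGFP peak within 50 kb, 81.1% an EoGFP, 83.0% an EoV5 and 84.2% an EoVP16 peak. Brdt, a germ cell relative of Brd2, had 2 BraGFP, 2 EoGFP, 5 EoV5 and 3 EoVP16 peaks. Of 10 other GPI-anchor genes, 9 had a BraGFP and 9 an EoGFP peak, from Pigb with 6 BraGFP peaks to Piga with 0. Of 5 genes for cubilin partners, all had a BraGFP peak and all an EoGFP peak, from the megalin gene Lrp2 with 6 BraGFP peaks to Dab2 and Lrpap1 with 1 each. Of 11 other G protein gamma genes, 6 had a BraGFP and 9 an EoGFP peak, from Gng7 with 9 BraGFP peaks to Gng10, Gng11, Gng13, Gngt1 and Gngt2 with 0. Bhlhe41 and 7 clock genes all had a peak in every list, from Per2 with 7 BraGFP peaks to Arntl with 2. Median BraGFP counts were 3 in the GPI and gamma lists, 2 in the cubilin list and 4 in the clock list, against 2 over coding genes.

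Each construct had 1 peak set, so no value here has a replicate error, and the intervals cover counting error only. BraGFP and EoGFP peaks have no deposited height, library depth cannot be read from the lists, and the minimum pileups differ, so counts and heights of different lists stand side by side here with no test between them.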

How the data were processed

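Peak lists of 4 ChIP-seq constructs were analysed, 1 list per construct, with samples assigned from the labels. The submitters' processing notes name the peak caller MACS2 2.1.1.20160309.4, the aligner Bowtie2 2.3.4 and the build mm10/GRCm38, with no order or settings. How the 2 libraries of BraGFP and of EoGFP were joined is not given in the sources used here. The deposited BraGFP and EoGFP lists hold positions and names only, and their starts may be off by 1 bp. In the deposited EoV5 and EoVP16 lists, which have no header, signal means fragments piled up at the summit, the ratio is the fold enrichment over the caller's background, and the −log10 p and q values were not used. Minimum pileups were read from the names of those files. Library depth is unknown.

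Peaks on unplaced contigs (7 BraGFP, 4 EoGFP, 7 EoV5, 6 EoVP16) and repeated entries (4, 12, 46 and 26) were left out. Peaks sharing at least 1 bp overlapped. Background was computed as (pileup + 1) / fold − 1, the formula of the caller. Comparisons with the list's minimum used (pileup + 1) / fold, that is, background plus 1. Gene spans, start sites and promoters came from RefSeq GRCm38.p6 tables, 4 of the 5 genes being in the promoter table. Shares carry exact (Clopper-Pearson) 95% intervals. With 1 peak set per construct no test was run. The overlap code was tested on simulated data. Python 3.11.15, pandas 2.3.3, NumPy 2.4.6 and SciPy 1.17.1 were used. Members, named genes and lists of relatives were chosen with earlier results of these data known. Genes named were the 5 genes, coding genes within 50 kb of them, the relatives with most and fewest BraGFP peaks (1 of them is not reported here) and the genes nearest to the peaks ranked 6 to 8 by width. H3K27ac, ATAC-seq, RNA-seq, input and uninduced libraries were not used here.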

Additional observations from a re-analysis of the deposited data

How the results depend on the processing

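With windows of 10 and 100 kb in place of 50 kb, the 5 genes had 4 and 27 EoGFP peaks (12 at 50 kb), 9 and 32 EoV5 peaks (18) and 20 and 55 EoVP16 peaks (34), while BraGFP counts stayed within 1.5 times of 33. Counting a gap of at most 500 bp as shared gave width ranks of 2 for Cubn, 3 for Gng2 and 4 for Bhlhe40, with Brd2 at 1 and Pigv without a rank. Requiring no overlap in any Eomes list left Gng2 alone, at rank 1. The 4 overlap shares stayed inside their intervals under each alternative tried: the overlap rules, a stricter threshold, the windows, and leaving out each gene. Leaving out the 5 wide peaks, added after seeing the data, was run for the 3 shares of BraGFP peaks only, and they too stayed inside. Moves of 1.5 times or more were EoV5 on BraGFP at 27.8% and 12.1% (18.2% before), EoVP16 on BraGFP at 50.0% (33.3%), and BraGFP on EoGFP at 16.7% and at 1 of 5 with stricter lists and 50.0% at 10 kb (33.3%). Of the 20 counts per gene, 11 moved by over 1.5 times at 10 kb and 10 at 100 kb, and none when any base of a peak in the window or repeated entries were counted. At 100 kb Gng2 had 2 EoGFP peaks. No paired analysis was possible because each construct has 1 peak set and no result comes from a test. The motif search in peaks was not run, because no genome sequence was used.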
